A study of Mus musculus with 16 samples.

Results

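Replicate 1 and replicate 2 of embryoid bodies (EBs) treated with retinoic acid (RA) were compared, 8 of the 16 libraries of the series and 33702 RefSeq transcripts of the 33750 in the table. R1 mouse ES cells had grown for 4 days as EBs in medium without Lif and then for 4 days in 2 µM RA (day 4), and the procedure was done in 2 biological replicates. The RNA of each replicate was divided into 4 vials, which received IVT mix 1, 2 or 3 of mouse spike-in transcripts or none of them (mix 4), with ERCC mix 1 in mixes 1 and 3 and ERCC mix 2 in mixes 2 and 4. The 8 libraries were chosen by the day in the labels, and the replicate of each vial is that of the study's list of samples, since the labels give the day and the mix only. Vials of a replicate are splits of the same RNA, so every test below measures the spread between vials, and with 1 RNA per replicate it says nothing of the spread between batches of EBs.

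EBs are floating aggregates in which ES cells leave the pluripotent state and form cells of all germ layers. RA binds nuclear receptors on DNA, switches on its own degrading enzymes and the Hox genes in their order along the body axis, and steers the cells towards neural fates. At day 4 the bodies held high levels of genes that RA acts on, with a mean over the 8 vials of 107 FPKM for the receptor Rarb and 85.4 FPKM for Hoxa5. Of 25 genes of the pluripotent state 10 had a mean of at least 1 FPKM, and Pou5f1 had 0.864 FPKM. Of 32 genes of neurons 6 reached 1 FPKM. Mesodermal genes (Wt1 at 77.9 FPKM, Twist1 at 43.1 FPKM) and embryonic globins were present as well, so the bodies were a mixture, and in such bulk RNA fewer cells of a type and less RNA per cell cannot be told apart.

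The replicates were close. FPKM, fragments relative to transcript length and library size as estimated by RSEM, were set on a log2 scale with 0.1 added, and the vials of replicate 2 and replicate 1 with the same mix were subtracted. Over the 13070 transcripts with a mean of at least 1 FPKM in the 8 vials, the median size of the difference, averaged over the 4 pairs, was 0.18 on the log2 scale, which is 13.3%. Of these transcripts 2.91% differed 2-fold or more, and 50.2% had the same sign in all 4 pairs. When the transcripts of a gene were summed, the median size over 11046 genes was 0.16, or 11.8%, and 0.425% of the genes differed 2-fold or more.

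This distance varied with the vials that were compared. The median size per pair was 0.15 for mix 1, 0.24 for mix 2, 0.30 for mix 3 and 0.11 for mix 4. Vials of the same RNA differed as well, with medians between 0.071 and 0.18 over 6 pairs in replicate 1 and between 0.093 and 0.16 over 6 pairs in replicate 2. The mean over all 16 pairs of a vial of each replicate was 0.20, against 0.12 over the 12 pairs within a replicate, a ratio of 1.65. The ranges overlapped, as the closest vials of different replicates had a median of 0.094 and the most distant vials of the same RNA had 0.18.

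Part of this distance went with the GC content of the transcript. The difference of replicate 2 from replicate 1 had a Pearson correlation of -0.45 with GC content across 12876 transcripts, which are not independent replicates. Transcripts were put in 20 bins by GC content. In the lowest bin of 644 transcripts, with a median of 38.5%, 91.5% were higher in replicate 2 and the median ratio was 1.17. In the highest bin, with a median of 60.1%, 7.45% were higher in replicate 2 and the median ratio was 0.717. The median was nearest to 0 in the bin around 47.8%, at -0.0078.

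A stretch of 90 bases from the middle of the coding sequence is shown for 4 such transcripts from the ends of this scale, with G and C in capitals. They were taken after their values were seen from genes with a single transcript in the table and a mean of at least 10 FPKM, as examples with a large difference and no overlap. The sequences are from the GENCODE vM21 transcripts of GRCm38. The stretches of Zfp992, Cip2a, Nenf and Mrpl54 have 32.2%, 43.3%, 57.8% and 60% GC. That of Cip2a has more GC than its whole transcript, at 37.7%, and does not itself show the GC-poor end.
Zfp992 (chromosome 4, plus strand): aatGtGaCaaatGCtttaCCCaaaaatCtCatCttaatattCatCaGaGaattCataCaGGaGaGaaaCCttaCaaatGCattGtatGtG
Cip2a (chromosome 16, plus strand): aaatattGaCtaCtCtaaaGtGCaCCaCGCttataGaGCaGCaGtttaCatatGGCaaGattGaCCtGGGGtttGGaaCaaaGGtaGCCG
Nenf (chromosome 1, minus strand): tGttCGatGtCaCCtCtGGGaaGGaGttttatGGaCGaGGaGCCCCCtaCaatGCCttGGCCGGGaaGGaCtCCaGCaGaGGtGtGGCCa
Mrpl54 (chromosome 10, minus strand): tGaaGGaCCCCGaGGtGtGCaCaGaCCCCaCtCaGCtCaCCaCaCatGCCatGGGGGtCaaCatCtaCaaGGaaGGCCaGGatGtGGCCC

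Zfp992, a zinc finger gene whose transcript has 36.9% GC, had 10.2, 8.38, 7.93 and 8.47 FPKM in the vials of mixes 1 to 4 of replicate 1 and 11.8, 12.1, 11.7 and 10.5 FPKM in those of replicate 2. Cip2a, which encodes an inhibitor of the phosphatase PP2A and has 37.7% GC, had 24.7, 22.1, 21.5 and 24.6 FPKM against 30.7, 29.97, 31.3 and 27.9 FPKM. Both were higher in every vial of replicate 2, by 0.40 ± 0.17 and 0.37 ± 0.16 on the log2 scale (SD over 4 pairs). Nenf, a secreted neurotrophic protein with 62.1% GC, had 27.0, 35.3, 38.4 and 32.9 FPKM in replicate 1 and 19.6, 20.1, 19.5 and 26.5 FPKM in replicate 2. Mrpl54, a protein of the mitochondrial ribosome with 60.4% GC, had 16.7, 18.7, 23.6 and 19.8 FPKM against 11.6, 11.98, 11.8 and 16.1 FPKM. Both were lower in every vial of replicate 2, and the vials closest to the other replicate were mix 1 of replicate 1 and mix 4 of replicate 2.

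The same vials stood apart in the whole table. Relative to the mean of the 8 vials, the log2 level changed per 10 points of GC content by 0.25, 0.30 and 0.13 in mixes 2, 3 and 4 of replicate 1 and by -0.23, -0.18 and -0.25 in mixes 1, 2 and 3 of replicate 2. It changed by -0.026 in mix 1 of replicate 1 and by -0.0035 in mix 4 of replicate 2. These 2 vials also had a higher mean correlation with the vials of the other replicate than with those of their own, for transcripts and for genes, before and after the correction below. The first of them had 6722 FPKM of the noncoding transcript NR_046233, against 18.04 to 21.5 FPKM in the other vials of replicate 1 and 8.87 to 11.2 FPKM in replicate 2. NR_046233 is the precursor of ribosomal RNA, which the depletion step is meant to remove, so this sign of incomplete depletion went with a vial that stood apart, and its part in the results was not tested. For Klk14 and the other genes without overlap below, both vials lay on the side of their own replicate, which that criterion requires. What made the vials differ in GC content was not tested.

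**Figure D1:**
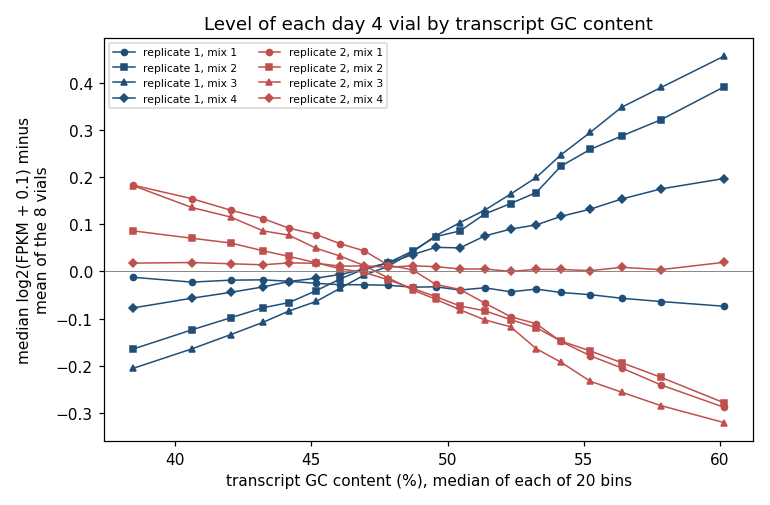
Level of each day 4 vial in 20 bins of transcript GC content. The x axis is the median GC content of a bin in percent, and the y axis the median of log2(FPKM + 0.1) minus the mean of the 8 vials. Replicate 1 (blue) rises with GC content in mixes 2, 3 and 4, replicate 2 (red) falls in mixes 1, 2 and 3, and mix 1 of replicate 1 and mix 4 of replicate 2 are nearly flat.

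FPKM were therefore also corrected for GC content, by dividing the values of a vial by its median deviation at that GC content. This lowered the correlation with GC content to -0.024, the median size of the difference to 0.097 for transcripts and to 0.075 for genes, which is 5.36%, and the ratio of the distance across to that within replicates to 1.35. Mean distances were then 0.12 across replicates and 0.092 within them. As the correction is fitted on the replicates themselves, it also takes away any biological difference that is linked to GC content.

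**Figure D2:**
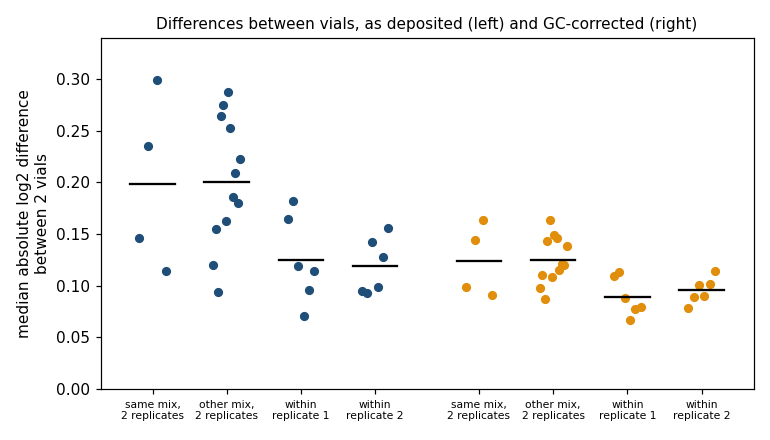
Median absolute log2 difference between 2 vials over 13070 transcripts, for vials of different replicates with the same or another mix and for vials within a replicate, with FPKM as deposited on the left and GC-corrected FPKM on the right. Points are pairs of vials and lines their mean. The mean across replicates falls from 0.20 to 0.12 and that within replicates from 0.12 to 0.092.

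Single genes were tested with limma with the mix as a block, over 19727 genes. At an adjusted p of at most 0.05, 1 gene (0.00507%) was called, Klk14, while 6396 genes (32.4%) had an unadjusted p of at most 0.05. Over 26427 transcripts 2 (0.00757%) were called and 5968 had an unadjusted p of at most 0.05. The genes with an unadjusted p of at most 0.05 had a median adjusted p of 0.088, just over the threshold, and the count depended on the setting. With the genes of at least 1 FPKM only, 1286 genes were called higher in replicate 2 and 1979 in replicate 1, and without the mix as a block these were 1649 and 2228. On GC-corrected FPKM 2 and 1 were called, and as deposited 0 or 1 when the vials of a mix were left out.

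A gene was therefore also described by whether the 4 values of a replicate all lay above the 4 of the other. Of the 11046 genes with a mean of at least 1 FPKM, 1894 (17.1%) were higher in replicate 2 without overlap and 1257 (11.4%) in replicate 1. On GC-corrected FPKM these were 1085 (9.82%) and 944 (8.55%). Without overlap on both scales were 650 (5.88%) higher in replicate 2 and 428 (3.87%) higher in replicate 1, whereas 2054 of the 3151 genes lost their separation after the correction and 19 turned direction. When mix 1 of replicate 1 and mix 4 of replicate 2 were left out, 2930 and 4880 genes did not overlap as deposited. The share that was higher in replicate 2 thus went from 60.1% to 37.5%. On GC-corrected FPKM 2726 and 2649 did not overlap, and on both scales 1427 and 2020 of the 11046 genes. These 2 vials were singled out from the same values for lying near the other replicate, and with fewer vials overlap is rarer. Leaving them out can therefore only raise such counts, and the rise is no support for a difference. Of the genes without overlap on both scales, 7 that were higher in replicate 2 and 14 that were higher in replicate 1 differed 1.5-fold or more on each.

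Klk14, a kallikrein-related serine peptidase (chromosome 7, 43690418 to 43695536 of GRCm38), had 5.92, 4.89, 5.55 and 5.37 FPKM in mixes 1 to 4 of replicate 1 and 13.8, 12.4, 12.7 and 12.5 FPKM in replicate 2. The groups were far apart, with a difference of 1.23 ± 0.066 on the log2 scale (SD over 4 pairs), a ratio of 2.34. The limma SE was 0.0503 and the adjusted p 0.0077. The difference was 1.43 on GC-corrected FPKM (adjusted p = 0.016). Without the vials of any 1 mix it lay between 1.197 and 1.25 and was not called, with adjusted p from 0.077 to 0.14, a test with fewer vials. It was not called without a variance trend either (adjusted p = 0.055).

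Xkrx, a membrane protein of the XK family on chromosome X, had the largest difference among the 650 genes higher in replicate 2 on both scales, with 10.1, 13.1, 13.9 and 12.8 FPKM against 37.5, 28.2, 32.5 and 35.2 FPKM. The difference was 1.41 ± 0.34 (adjusted p = 0.082) and 1.38 after the GC correction. Nepn, a secreted protein with leucine-rich repeats, had 4.30, 4.39, 4.30 and 4.03 FPKM in replicate 1 and 8.37, 9.56, 7.71 and 7.92 FPKM in replicate 2, a difference of 0.96 ± 0.11 (adjusted p = 0.063, and 0.044 on GC-corrected FPKM). Neither passed the test on FPKM as deposited, although their vials did not overlap. Like Klk14 and those that follow, they were chosen after their values were seen, as the genes with the largest difference among those without overlap on both scales.

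Smaller differences towards replicate 2 followed by the same choice. Shh, the ligand that patterns the ventral neural tube, was low, with 0.902, 0.93, 0.951 and 0.975 FPKM in replicate 1 and 1.46, 1.66, 1.59 and 1.65 FPKM in replicate 2. Its difference was 0.70 ± 0.056, narrow across the 4 pairs and 0.85 after the correction. Foxd1, a forkhead transcription factor, had 2.45, 1.87, 2.69 and 2.81 FPKM against 3.52, 3.86, 3.59 and 3.15 FPKM, a difference of 0.52 ± 0.36. Fgfbp3, which binds fibroblast growth factors, differed by 0.48 ± 0.26, and the Wnt-binding protein Sfrp2, given here for its test against day 0 below, by 0.39 ± 0.11. The synaptic vesicle protein Sv2c (0.69 ± 0.27), the urea cycle enzyme Arg1 (0.53 ± 0.30), the calcium-binding protein S100g (0.53 ± 0.31) and melanoregulin, Mreg (0.51 ± 0.15), were also higher in all 4 vials of replicate 2. So were NM_026989 (0.66 ± 0.27) and NM_009018 (0.59 ± 0.46), which were not matched to a symbol. The adjusted p of these genes was between 0.082 and 0.086.

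**Figure D3:**
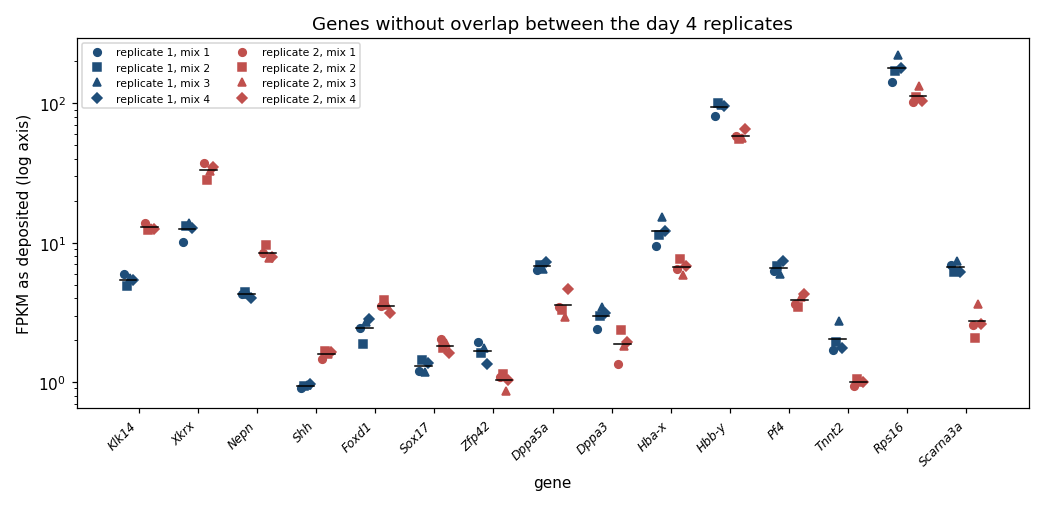
FPKM as deposited (log axis) of 15 genes without overlap between the replicates, with 4 vials of replicate 1 in blue and 4 of replicate 2 in red, a marker per mix and the mean as a line. Klk14, Xkrx, Nepn, Shh, Foxd1 and Sox17 are higher in each vial of replicate 2, and the other 9 genes in each vial of replicate 1.

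Some genes of the pluripotent state were lower in replicate 2. Dppa5a, an RNA-binding protein of ES cells, had 6.401, 6.90, 6.49 and 7.27 FPKM in replicate 1 and 3.45, 3.30, 2.91 and 4.62 FPKM in replicate 2, a difference of -0.92 ± 0.22, and its vials did not overlap. Dppa3, known as a maternal factor that guards DNA methylation, had 2.40, 2.97, 3.44 and 3.15 FPKM against 1.34, 2.38, 1.83 and 1.94 FPKM (-0.66 ± 0.25). Zfp42, the ES cell marker Rex1, had 1.93, 1.61, 1.75 and 1.35 FPKM against 1.09, 1.15, 0.86 and 1.04 FPKM (-0.63 ± 0.28). All 3 kept the separation after the GC correction, with -0.85, -0.73 and -0.66, and none was called (adjusted p = 0.082 for each).

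Over the whole list of pluripotency genes, 10 of 25 had a mean of at least 1 FPKM. Their median difference was -0.29, and -0.36 after the correction, against medians of -0.049 and -0.0028 over all genes. The 3 genes above were without overlap on both scales in the direction of replicate 1, where 3.87% of all genes were. Lin28b, which blocks let-7 maturation, was in that of replicate 2 (5.88% of all genes), with 10.3 ± 0.64 and 13.2 ± 0.79 FPKM (SD, n = 4 vials). On GC-corrected FPKM alone 4 of the 10 were separated towards each replicate, against 8.55% and 9.82% of all genes towards replicates 1 and 2. Added there were Fbxo15 (-0.42) towards replicate 1 and Lin28a (0.32), Tbx3 (0.27) and Dnmt3b (0.20) towards replicate 2. Nanog had a mean of 1.36 FPKM in replicate 1 and 1.15 FPKM in replicate 2 and overlapped (-0.25 ± 0.29). By limma 0 of the 25 were called.

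Embryonic red cell genes were lower in replicate 2 as well. The primitive globin Hbb-y had 80.8, 101, 97.5 and 94.9 FPKM in replicate 1 and 58.3, 55.0, 56.0 and 65.5 FPKM in replicate 2, and Hba-x had 9.44, 11.4, 15.4 and 12.1 FPKM against 6.49, 7.69, 5.84 and 6.84 FPKM. Their differences were -0.67 ± 0.20 and -0.82 ± 0.39. Hbb-bh1 differed less, with 73.0, 80.5, 78.7 and 75.2 FPKM against 64.1, 62.2, 57.3 and 66.2 FPKM (-0.30 ± 0.14). Pf4, a chemokine of megakaryocytes, had 6.29, 6.85, 5.94 and 7.42 FPKM against 3.65, 3.47, 4.06 and 4.28 FPKM (-0.76 ± 0.17). The vials of these 4 genes did not overlap before or after the correction, and each had an adjusted p of 0.082.

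The adult globins Hba-a1 and Hba-a2 are near-identical and their values moved in opposite directions between vials, so that they are given as a sum only. The sum was 16.4, 21.9, 21.6 and 18.1 FPKM in replicate 1 and 10.7, 11.03, 9.60 and 12.2 FPKM in replicate 2, a ratio of 1.78 without overlap. Of the endothelial genes of the same list, the VEGF receptor Kdr had a mean of 17.5 FPKM in replicate 1 and 17.0 FPKM in replicate 2, Cd34 had 15.9 and 15.3 FPKM, and the adhesion molecule Pecam1 had 12.6 and 10.5 FPKM (-0.25 ± 0.17), each with overlap. The receptor Tie1 had -0.34 ± 0.34 with overlap as well. Of the 18 measured members of 24, 4 were without overlap on both scales, all towards replicate 1, where 3.87% of all genes were. Among them was Esam of endothelial junctions (-0.37 ± 0.17), and 0 were called. The list's median was -0.054 and 0.017 after the correction.

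Muscle and other mesodermal genes gave little separation. Cardiac troponin T, Tnnt2, had 1.71, 1.95, 2.72 and 1.75 FPKM in replicate 1 and 0.932, 1.05, 0.994 and 0.999 FPKM in replicate 2 (-0.94 ± 0.29, and -0.66 after the correction). It was the 1 separated member of 8 measured heart and muscle genes, towards replicate 1, where 3.87% of all genes were. The list's highest members, the smooth muscle genes Acta2 (-0.055 ± 0.28) and Tagln (-0.10 ± 0.27), overlapped. Of 11 measured mesoderm genes 0 were without overlap on both scales. Their median of 0.081 became 0.31 after the correction, at a median GC content of 53.7%. Wt1 was separated as deposited only (0.081 ± 0.080) and Twist1 overlapped (0.057 ± 0.15), and these became 0.31 and 0.49.

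Neural genes went both ways. Ptn, a growth factor made by neural progenitors, had 41.6, 53.2, 58.5 and 49.7 FPKM in replicate 1 and 31.8, 31.4, 32.9 and 40.1 FPKM in replicate 2 (-0.57 ± 0.26). Sox11, a transcription factor of progenitors and early neurons, had 36.4, 33.6, 32.8 and 34.5 FPKM against 42.1, 40.7, 43.0 and 39.6 FPKM (0.27 ± 0.089). The intermediate filaments Nes (0.15 ± 0.039) and Vim (0.084 ± 0.020) were higher in each vial of replicate 2. As deposited this was by 11.3% and 6.02%, less than the median size of the difference over all genes. On GC-corrected FPKM their differences were 0.47 and 0.33, more than the median size of 0.075 over all genes. Of 7 measured progenitor genes 3 were without overlap on both scales towards replicate 2 and 1 towards replicate 1, against 5.88% and 3.87% of all genes. Of 6 measured neuron genes 1 was, Stmn2 of growing axons, with 5.13 ± 0.32 and 3.81 ± 0.42 FPKM (-0.43 ± 0.066), while the motor neuron factor Isl1 overlapped (0.17 ± 0.17).

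Rarb and Hoxa5, the most abundant genes of the RA response and Hox lists, had differences of 0.014 ± 0.081 and 0.0089 ± 0.043 with overlap. Dhrs3, which reduces retinal, had means of 101 and 81.4 FPKM and a difference of -0.32 ± 0.20, also with overlap. Nr2f1, an orphan receptor induced by RA, was the 1 RA gene of 19 measured without overlap on both scales, with 16.5, 15.98, 16.7 and 15.8 FPKM against 20.8, 20.6, 21.1 and 18.8 FPKM (0.32 ± 0.051, and 0.78 after the correction). Of 28 measured Hox genes 4 were separated on both scales, all towards replicate 2, where 5.88% of all genes were. They were Hoxb3 (0.24 ± 0.050), Hoxd1 (0.30 ± 0.18), Hoxb2 (0.17 ± 0.12) and Hoxc5 (0.033 ± 0.025). The median of the Hox list was 0.0027 and became 0.17 after the correction, at a median GC content of 53.5%. A difference between the replicates in GC-rich genes as a group and an effect of GC content on the vials cannot be told apart here.

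Endoderm and neural crest genes held few separated members. Sox17, a factor of endoderm and blood vessel cells, had 1.196, 1.45, 1.18 and 1.36 FPKM in replicate 1 and 2.02, 1.74, 1.90 and 1.62 FPKM in replicate 2 (0.46 ± 0.25). Epcam of epithelia was higher in each vial of replicate 2 by a small amount (0.15 ± 0.12). These were the 2 of 19 measured endoderm genes separated on both scales, both towards replicate 2, where 5.88% of all genes were. The median of the endoderm list went the other way as deposited, at -0.18, and was 0.039 after the correction. The list's highest, Sparc (-0.13 ± 0.11) and Gata6 (0.068 ± 0.039), overlapped. Of 6 neural crest genes 0 were separated on both scales, and as deposited Ets1 (0.066 ± 0.072) and Ednrb (0.042 ± 0.020) overlapped.

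Lists of energy supply and of the ribosome had medians below 0 on both scales. Gapdh had 274, 412, 429 and 345 FPKM in replicate 1 and 230, 236, 206 and 262 FPKM in replicate 2, and the glycolytic enzyme Gpi1 had 60.0, 81.3, 87.1 and 72.9 FPKM against 48.9, 52.4, 48.1 and 59.9 FPKM. Their differences of -0.63 ± 0.37 and -0.52 ± 0.28 became -0.32 and -0.30 after the correction. Of 31 measured glycolysis and hypoxia genes 6 were separated on both scales, all lower in replicate 2, where 3.87% of all genes were, and the list's median was -0.26 and -0.12 after the correction. Without the 2 vials that stood apart, 18 were separated towards replicate 1 and 1 towards replicate 2, against 2020 and 1427 of all 11046 genes. As these vials were left out for lying near the other replicate, such a rise is no support for a difference. Pgk1 (-0.12 ± 0.11) and Pgam1 (-0.038 ± 0.089), the most abundant of the list, overlapped as deposited.

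Of 78 measured cytosolic ribosomal protein genes 2 were separated on both scales, Rps16 and Rps27, towards replicate 1, where 3.87% of all genes were. The list's median was -0.27 and -0.15 after the correction. Rps16 had 142, 170, 223 and 178 FPKM against 102, 110, 133 and 105 FPKM (-0.66 ± 0.13). Rps27 rested on mix 3 of replicate 1, with 54.0 FPKM there and 0.492 to 0.539 FPKM in the other vials of replicate 1. Without mix 1 of replicate 1 and mix 4 of replicate 2, the vials that stood apart, 60 of the 78 were separated towards replicate 1 on both scales, and 1 towards replicate 2. Of all 11046 genes these were 2020 and 1427. Rpl39 (0.12 ± 0.12) and Rps27a (-0.025 ± 0.022), the most abundant of the list, overlapped. Of 74 nuclear genes of oxidative phosphorylation 3 were separated towards replicate 1 and 1 towards replicate 2, against 3.87% and 5.88% of all genes. Without the 2 vials these were 37 and 7, against 2020 and 1427 of all 11046 genes. For both lists, leaving out vials that lay near the other replicate raises such counts by construction and is no support for a difference. The median of these 74 went from -0.23 to -0.062 with the correction, with the most abundant, Cox7c, at 0.15 ± 0.12 and Atp5b at -0.19 ± 0.15. Ribosomal protein genes have many near-identical copies, between which reads could be split.

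Of 22 mitosis genes 5 were separated on both scales, all towards replicate 2, where 5.88% of all genes were. The 5 were Cenpf (0.23 ± 0.053), Cenpe (0.24 ± 0.069), Top2a (0.19 ± 0.061), Mki67 (0.14 ± 0.047) and Nusap1 (0.16 ± 0.068). After the correction these were between 0.038 for Nusap1 and 0.11 for Cenpf. The list's median was -0.0050 and 0.014 after the correction, and Ccnb1 (0.072 ± 0.077) overlapped. Members with a lower mean in replicate 2 overlapped as deposited, such as Cdc20 (-0.36 ± 0.30) and Plk1 (-0.27 ± 0.26). Without the 2 vials that stood apart, 7 mitosis genes were separated towards replicate 2 and 5 towards replicate 1, against 1427 and 2020 of all 11046 genes. Of 23 DNA replication genes 2 were separated on both scales, both towards replicate 2, where 5.88% of all genes were. The 2 were the sliding clamp Pcna (0.21 ± 0.098) and Slbp (0.20 ± 0.10), which binds histone mRNA. Others of the list had negative differences with overlap, such as Tk1 (-0.63 ± 0.43) and Mcm5 (-0.32 ± 0.24). Without the 2 vials 3 were separated towards replicate 2 and 6 towards replicate 1, against 1427 and 2020 of all 11046 genes. Replication-dependent histone mRNAs, which lack a poly(A) tail, had a median of -0.87 over 40 measured genes and -0.52 after the correction. Of these 0 were separated on both scales. Without the 2 vials that stood apart 32 were, all towards replicate 1, where 2020 of all 11046 genes were. A rise after these vials are left out is no support for a difference in any of these lists. The most abundant histones, H2bc18 (-0.46 ± 0.45) and H1f1 (-0.54 ± 0.43), had an SD over pairs close to the difference.

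Other lists held at most 5 separated genes each. Of all genes 5.88% were separated on both scales towards replicate 2 and 3.87% towards replicate 1. In the extracellular matrix list 4 of 23 were separated towards replicate 2 (Col9a1, Sparcl1, Col11a1 and Vcan) and 1 towards replicate 1, Postn (-0.19 ± 0.016), and Col3a1 (-0.099 ± 0.081) and Timp3 (0.0094 ± 0.072) overlapped. Imprinted genes gave 1 of 21, Kcnq1ot1, towards replicate 2 (0.36 ± 0.12), with Mest (0.033 ± 0.072) and Gnas (0.020 ± 0.018) in overlap. Cholesterol synthesis gave Cyp51 and Fdft1 in opposite directions (0.10 ± 0.077 and -0.21 ± 0.14), and Msmo1 (0.13 ± 0.048) and Hmgcs1 (0.19 ± 0.088) were separated as deposited only. The unfolded protein list gave Pdia4 (-0.18 ± 0.11), while Hspa5 (0.094 ± 0.081) was separated as deposited only and Hsp90b1 (0.094 ± 0.11) overlapped. Heat shock gave Hspd1 (0.12 ± 0.041) and Hsp90ab1 (-0.21 ± 0.14), with overlap for Hspa8 (-0.10 ± 0.086). Of p53 targets Eda2r was separated (0.25 ± 0.14), and Ccng1 (0.19 ± 0.082) and Trp53inp1 (0.25 ± 0.14) lost their separation with the correction. Of immediate early genes Ccn2 was (0.23 ± 0.13), and Jun (-0.11 ± 0.077) and Jund (-0.15 ± 0.15) overlapped. The Y-linked Eif2s3y (0.19 ± 0.16) and Ddx3y (0.20 ± 0.12) had -0.018 and -0.032 after the correction.

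**Figure D4:**
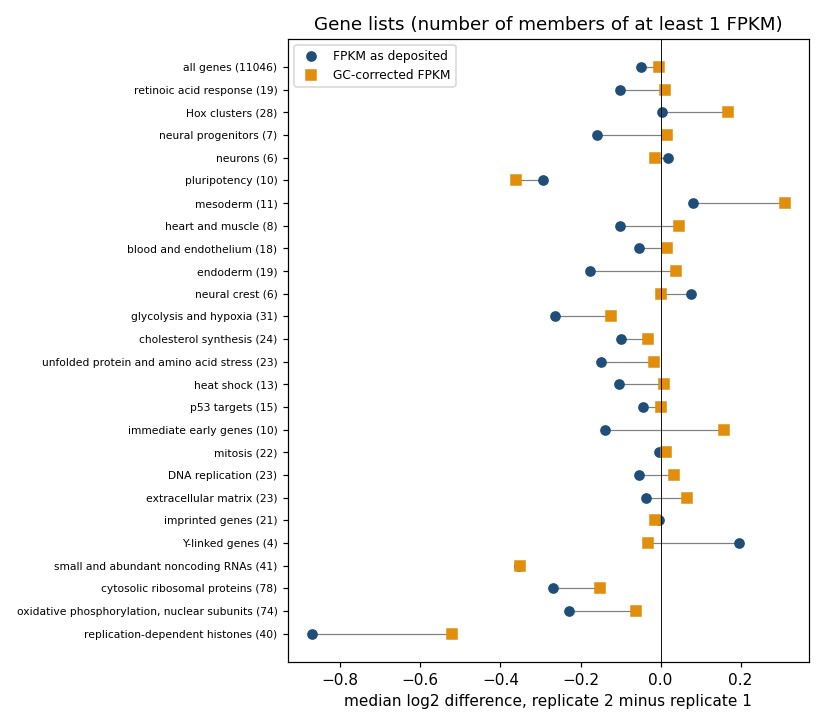
Median log2 difference of replicate 2 from replicate 1 over the measured members of 25 gene lists and over all genes, with FPKM as deposited (blue circles) and GC-corrected FPKM (orange squares). Histones, pluripotency genes and small noncoding RNAs lie furthest left of 0 on both scales, and other lists lie left on both as well. The mesoderm, Hox and neural crest lists lie right of 0 on both.

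Small noncoding RNAs held several of the larger differences. Most of those named here guide chemical changes of ribosomal and spliceosomal RNA, and with lengths near that of the 100-bp reads their FPKM are less certain than those of mRNAs. Of 41 measured members of 135, 6 were separated on both scales towards replicate 1 and 1 towards replicate 2, against 3.87% and 5.88% of all genes. The list's median was -0.35 on both scales, and its most abundant member, Malat1, was separated towards replicate 2 as deposited only (0.22 ± 0.15). The member towards replicate 2 on both scales was Snhg6. Snora24 (chromosome 3, 123507937 to 123508066, minus strand, inside the host gene Snhg8) had 1.598, 8.25, 7.36 and 7.06 FPKM in replicate 1 and was listed at 0 in all 4 vials of replicate 2. Its host had 10.1 ± 0.88 and 10.7 ± 1.2 FPKM. Scarna3a (chromosome 1, 159340283 to 159340422, plus strand, inside the gene Cop1) had 6.97, 6.16, 7.39 and 6.12 FPKM against 2.58, 2.07, 3.61 and 2.62 FPKM (-1.28 ± 0.23). Both RNAs are shown in full, since they are short enough to be read as a whole, with the ACA near the 3′ end that marks their class in capitals.
Snora24: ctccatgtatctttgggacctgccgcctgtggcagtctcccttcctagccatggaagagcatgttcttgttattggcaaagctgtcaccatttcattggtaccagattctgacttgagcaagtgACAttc
Scarna3a: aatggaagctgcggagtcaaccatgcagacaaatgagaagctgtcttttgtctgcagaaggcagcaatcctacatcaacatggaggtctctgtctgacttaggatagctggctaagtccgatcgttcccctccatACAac

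Members of the class differed in size and direction, and those given here were chosen after their values were seen. Snora74a had 465, 505, 530 and 466 FPKM against 203, 212, 273 and 306 FPKM (-1.004 ± 0.29), and Snord17 had 319, 399, 404 and 352 FPKM against 131, 170, 269 and 199 FPKM (-0.98 ± 0.33). Snora21 (-0.90 ± 0.48) and Scarna6 (-0.67 ± 0.18) were separated too. Rmrp (-1.21 ± 1.45) and Snora26 (-0.30 ± 0.91) overlapped, and Snhg1 was higher in each vial of replicate 2 as deposited only (0.12 ± 0.074). By limma the separated members were not called as deposited, with adjusted p from 0.063 to 0.082, whereas Snora24 was on GC-corrected FPKM (adjusted p = 0.044). Trap1a, an X-linked gene of embryonic and trophoblast cells, was the remaining gene among the 12 largest towards replicate 1 (-0.65 ± 0.27).

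Transcripts of the same gene could differ in opposite directions while the gene as a whole differed little. By limma 0 of the 1638 genes with at least 2 transcripts of 1 FPKM had 2 transcripts called in opposite directions, and 5968 of all transcripts had an unadjusted p of at most 0.05. With the criterion of no overlap on both scales there were 34. Adh5, Morf4l2, Rbms3 and Xbp1 were among those with the largest gap and were chosen after their values were seen.

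Xbp1 encodes a transcription factor of the unfolded protein response. The enzyme IRE1 cuts a short stretch out of its mRNA in the cytoplasm, which shifts the reading frame and gives the active protein, and the RefSeq transcripts NM_013842 and NM_001271730 are the forms with and without this stretch. In the GENCODE transcript on chromosome 11 (5520659 to 5525893, plus strand) a stretch of 26 bases lies between 2 CNGCAGC sites of the coding sequence, and it is shown in capitals because the difference rests on it.
Xbp1, bases 785 to 870 of the transcript: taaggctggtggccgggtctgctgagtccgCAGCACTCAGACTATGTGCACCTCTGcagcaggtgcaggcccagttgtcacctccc

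NM_001271730 had 0.323, 2.42, 3.29 and 2.99 FPKM in mixes 1 to 4 of replicate 1 and 16.7, 23.4, 27.0 and 10.0 FPKM in replicate 2. NM_013842 had 60.1, 59.9, 55.8 and 58.4 FPKM against 39.2, 33.2, 31.7 and 49.0 FPKM. For Xbp1 the sum differed by -0.079 ± 0.058, with 60.8 ± 1.4 FPKM in replicate 1 and 57.6 ± 1.5 FPKM in replicate 2 (SD, n = 4 vials). This sum was lower in every vial of replicate 2 as deposited, and overlapped on GC-corrected FPKM. The form without the stretch, NM_001271730, made up 0.534% to 5.57% of both in replicate 1 and 17.0% to 45.9% in replicate 2, without overlap. The transcripts differed by 3.31 ± 1.49 and -0.63 ± 0.27, both with an adjusted p of 0.16. Within replicate 2 the share ranged more than 2-fold between vials of the same RNA, and reads that do not cross the stretch match both forms.

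Adh5, a formaldehyde dehydrogenase, showed how far such splits can move between vials. NM_001288578 had 57.6, 4.17, 13.3 and 2.41 FPKM in replicate 1 and 89.5, 108, 93.9 and 77.7 FPKM in replicate 2, while NM_007410 had 78.3, 141, 130 and 140 FPKM against 49.0, 26.9, 42.0 and 65.0 FPKM. The gene as a whole had 142 ± 4.0 and 138 ± 3.4 FPKM. Here mix 1 of replicate 1 lay near the vials of replicate 2. The called transcript NM_010549 of Il11ra1 had 6.42, 5.94, 5.27 and 5.82 FPKM in replicate 1 and was listed at 0 in replicate 2 (adjusted p = 0.012), while the gene had 23.1 ± 2.3 and 18.1 ± 2.4 FPKM. Il11ra1 has near-identical copies on chromosome 4, among which its reads could be split, so its value is uncertain.

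**Figure D5:**
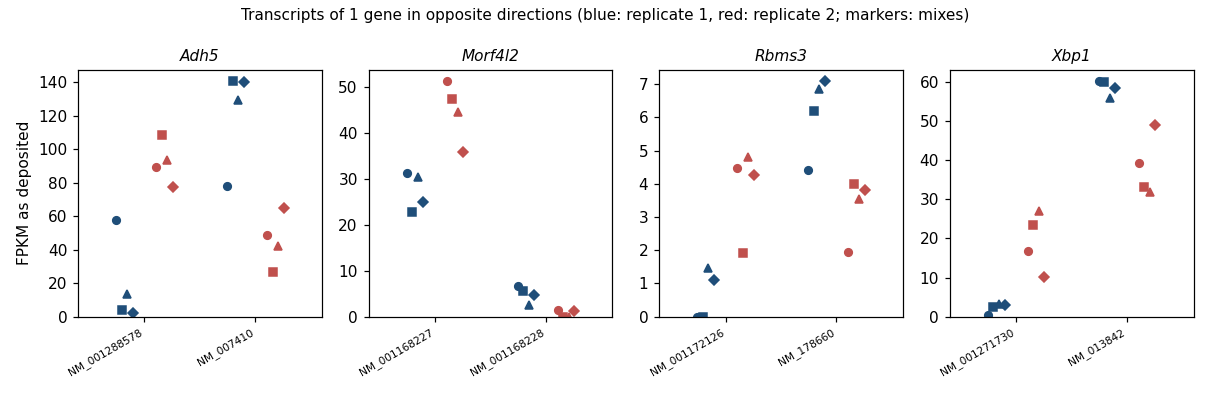
FPKM as deposited of the transcripts of Adh5, Morf4l2, Rbms3 and Xbp1 that lay in opposite directions, with the vials of replicate 1 in blue, those of replicate 2 in red and a marker per mix. In Xbp1 the transcript NM_001271730 has 0.323 to 3.29 FPKM in replicate 1 and 10.0 to 27.0 FPKM in replicate 2.

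The difference between the replicates at day 4 was also tested against that at day 0, before RA, in a fit over all 16 libraries. Of 20497 genes 28 (0.137%) were called, and 2887 had an unadjusted p of at most 0.05. For 22 of the called genes the difference of replicate 2 from replicate 1 was higher at day 4 than at day 0. Among these 22 were genes at 0 FPKM in every day 4 vial, such as Atp6v0c and H4c11, whose calls rest on day 0 alone. At day 0 Atp6v0c had means of 16.1 FPKM in replicate 1 and 0.455 FPKM in replicate 2. The vials of replicate 2 at day 0 varied widely, with Gapdh between 168 and 1366 FPKM. Klk14 and Xkrx were low at day 0, with mean differences of 1.19 and 0.97 towards replicate 2. Klk14 overlapped there, with 0.442 to 0.653 FPKM in replicate 1 and 0.629 to 3.30 FPKM in replicate 2. Xkrx had 0.473 to 0.743 FPKM in replicate 1 and 0.826 to 1.47 FPKM in replicate 2. The interactions of both were not called, with 0.036 (adjusted p = 0.97) for Klk14 and 0.44 (adjusted p = 0.36) for Xkrx. For Shh, with 0.118 to 0.354 FPKM over the day 0 vials and a difference of -0.46 there, the interaction was 1.16 (adjusted p = 0.13).

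Called were Vim, with 0.084 at day 4 and -0.58 at day 0, and Col3a1, with -0.099 and -0.98. On GC-corrected FPKM Vim had an interaction of 0.028 (adjusted p = 0.97) and Col3a1 one of 0.49 (adjusted p = 0.28), so neither was called there. Sfrp2, named after its value was seen, had 5.56 ± 0.20 and 7.34 ± 0.46 FPKM at day 4, an interaction of 0.67 (adjusted p = 0.045), and 0.19 after the correction (adjusted p = 0.76). Afp of early endoderm, also named after its value was seen, had 1.13 ± 0.076 and 0.419 ± 0.14 FPKM at day 4, an interaction of -1.56 (adjusted p = 0.033) and -1.57 after the correction (adjusted p = 0.020). Without the vials of mix 2, 3 or 4 the call was lost for Vim, Col3a1, Sfrp2 and Afp, with adjusted p between 0.11 and 0.51, and for Sfrp2 also without mix 1 (adjusted p = 0.12). Equal library totals ended it for Vim (adjusted p = 0.14) and Sfrp2 (adjusted p = 0.20), and a pseudocount of 0.01 for Vim, Sfrp2 and Afp (adjusted p = 0.061, 0.061 and 0.16). Over all genes the number of calls lay between 2 and 53 over the mixes left out.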

How the data were processed

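The submitters' processing notes name RSEM 1.2.18 and Bowtie2 2.1.0 on mm10, and per the paper's methods the reads of stranded, ribosome-depleted libraries were mapped to RefSeq transcripts with the spike-ins. The authors deposited FPKM per transcript after scaling each library by TMM. Fragment counts are not part of the table, so the depth of single values is unknown and no counting error was given. FPKM of the 8 day 4 columns summed to 408168 to 431978 over RefSeq rows. The 48 other rows were left out.

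Differences were taken on log2(FPKM + 0.1), replicate 2 minus replicate 1, between vials of the same mix. Symbols (99.2% of rows) are from RefSeq and GENCODE tables, and GC content (98.5% of transcripts of at least 1 FPKM) from GENCODE vM21 transcripts of GRCm38. limma 3.58.1 in R 4.3.3 was used with the mix as a block and a mean-variance trend in eBayes, and p-values were adjusted by Benjamini-Hochberg over all genes or transcripts tested. The GC correction interpolates the median deviation of each vial in 20 bins. The fits were tested on simulated data before use. Pair differences were correlated between mixes with r from 0.047 to 0.52. Python 3.11.15, numpy 2.4.6 and pandas 2.3.3 did the rest.

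The replicates compared and the gene lists were chosen with earlier results of these data known. Genes were named if they were called, separated and of at least 1 FPKM (up to 12 per direction), as up to 4 called members of a list or its 2 most abundant ones, and as 5 genes with transcripts in opposite directions, of which 1 is not reported here. As 1 gene was called, 12 genes per direction and up to 6 list members without overlap on both scales, by the smaller of the differences, were added after the values were seen. Alternatives were pseudocounts, filters, scaling, variance models, no block, the GC correction and vials left out.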

Additional observations from a re-analysis of the deposited data

Results flagged for a closer look

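A vial that lay far from the other 3 of its replicate, by a gap of more than 0.829 of the whole range, was found for 12 of the 230 groups of 4 tested, about the share of 1 in 20 that chance gives, with NR_046233 counted once as a gene and once as a library measure. The noncoding transcript NR_046233 had 6722 FPKM in mix 1 of replicate 1, and in replicate 2 the highest value was 11.2 FPKM in mix 4. Rps27 had 54.0 FPKM in mix 3 of replicate 1. In mix 1 of replicate 1, Hspa8 was lowest with 1632 FPKM and Isl1 highest with 4.06 FPKM. Hoxa5 was highest in mix 3 of replicate 1 with 90.2 FPKM. In replicate 2, mix 4 held the highest H1f1 with 253 FPKM and the lowest Malat1 with 417 FPKM, mix 2 the lowest Ccnb1 with 113 FPKM and mix 3 the highest Jun with 11.1 FPKM.

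The difference between the replicates at day 4 differed from that at day 0, by the interaction in limma, for Col3a1 (0.88, adjusted p = 0.0066), Vim (0.66, adjusted p = 0.044) and Snora24 (-5.14, adjusted p = 0.020, a fitted value against vials listed at 0). By limma the Snora24 call was lost without mix 2, 3 or 4 (adjusted p = 0.31, 0.45 and 0.15) and with a pseudocount of 0.01 (adjusted p = 0.075).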

How the results depend on the processing

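The GC correction lowered the median size of the difference to 0.097, the ratio to the difference between vials to 1.35 and the correlation with GC content to -0.024, which it removes by construction. On FPKM as deposited the Spearman correlation with GC content was -0.68, where the Pearson correlation was -0.45. The other alternatives moved these values by less than the SD between pairs. With the RNA replicate as the pairing number no paired analysis was possible because the replicate is the factor compared, so vials were paired by IVT mix. Counts of calls are given as higher in replicate 2 and higher in replicate 1. Genes were 1 and 0 in the main fit, 2 and 1 with GC-corrected FPKM, equal library totals or a pseudocount of 0.01, 8 and 16 with GC-corrected FPKM of at least 1, 0 and 0 without a variance trend, 1286 and 1979 with a mean of at least 1 FPKM, 1649 and 2228 without the mix block, 0 to 1 with a mix left out and 0 to 3 with GC-corrected FPKM and a mix left out. Transcripts were 1 and 1 in the main fit, 22 and 16 without the block, 0 and 1 with GC-corrected FPKM (also of at least 1 FPKM), without a trend or with equal totals, and 0 with a mix left out. Against day 0 the counts were 22 and 6, 34 and 17 with GC-corrected FPKM, 47 and 23 with this and at least 1 FPKM, 9 and 9 with equal totals, 59 and 12 without the block, 12 and 2 with a pseudocount of 0.01, 88 and 11 with 1, and 1 to 44 and 1 to 9 with a mix left out. The cause was not tested; the filters leave fewer genes, and a mix left out fewer vials. Genes without overlap were 1894 and 1257, 1085 and 944 with GC-corrected FPKM, 2031 to 2839 and 1409 to 4308 with a mix left out, of which the latter was 4308 without mix 1 and 3465 without mix 4, 2930 and 4880 without the 2 vials that stood apart, and 2649 in replicate 1 with GC-corrected FPKM as well. Leaving vials out raises counts of genes without overlap by construction. Eif2s3y became -0.018 and Ddx3y -0.032 with GC-corrected FPKM. Of 111 genes named, 48 moved by more than the spread over pairs with the GC correction. The depth behind single values is unknown, and 1 RNA per replicate limits every value to these bodies.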
